A study of Homo sapiens with 18 samples.

Results

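The genes described here are 43 genes of G2 and mitosis taken by name from a list of genes for entry into mitosis, the spindle, the kinetochore and cell division. All 43 were found by symbol among the 60252 gene IDs of the deposited table, and all 43 passed the filter on low counts. RNA came from 18 samples of MCF-10A, a non-tumorigenic line of human mammary epithelial cells, kept for 8 days in Matrigel, a gel of basement membrane proteins in which these cells form hollow spheres called acini. Each sample carried a stable retroviral construct: the empty vector PWZL in Control, or a construct holding the coding sequence of TRA2B (TRA2B-OE, for overexpression) or of 1 of 4 SR proteins (SRSF2-OE, SRSF4-OE, SRSF6-OE and SRSF9-OE). All 5 proteins bind pre-mRNA and steer its splicing. The 6 groups had 3 samples each. In 4 groups (Control, TRA2B-OE, SRSF4-OE and SRSF6-OE) the descriptions of replicates 1 and 2 share library ID and barcode and differ in lane, so these samples were read as lanes of a single library and summed. Their counts differed by more than sampling noise (mean chi-square per gene 3.82 to 9.06, where sampling alone gives 1), and that they are a single library was not tested. This left 14 libraries of 42959069 to 121601376 counts, with 3 in SRSF9-OE and in SRSF2-OE and 2 in each group with summed lanes. The labels do not say whether the libraries came from separate cultures or infections, and p-values measure only the spread among the libraries at hand, which could be technical.

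The listed genes serve the last part of the cell cycle. Cyclin B and CDK1 start mitosis, the Aurora and Polo kinases build the spindle, the spindle checkpoint holds the cell until each kinetochore is attached, and the anaphase-promoting complex then triggers chromosome separation. Their transcripts build up in G2 and are kept low in resting cells by the DREAM complex, which rests on the MuvB core. When a cell cycles, MuvB works with the activators B-MYB (gene MYBL2) and FOXM1 instead. Acini of MCF-10A are known to slow and then stop dividing as they mature, so transcripts of this kind serve as a readout of how far a culture has left the cell cycle. In bulk RNA, a smaller share of dividing cells and less transcript per dividing cell cannot be told apart.

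The promoters of 3 of these genes are printed first, with 1 more added after its motif matches were seen. Short elements shared by promoters of this class are a property that the making of the gene list did not use. The printed promoters, however, were picked by their motif matches, so that they hold matches is no result. The sequences are RefSeq's, on build GRCh38.p14, from 250 bases before to 50 bases after the start of transcription, 5′ to 3′ on the strand of the gene, and the start itself is position 0. Capitals mark the cell cycle genes homology region (CHR, searched as TTTGAA or TTCGAA), which MuvB binds, and the CCAAT box, which the factor NF-Y binds, on either strand. CDK1, PLK1 and CDC20 were taken as the genes with the highest mean level that hold a CHR among the roles of mitotic entry, kinases and anaphase. For a gene with several starts, the window with the most CHR matches was printed. CCNB2, cyclin B2, is the addition.
CDK1, chr10:60778228-60778527, plus strand: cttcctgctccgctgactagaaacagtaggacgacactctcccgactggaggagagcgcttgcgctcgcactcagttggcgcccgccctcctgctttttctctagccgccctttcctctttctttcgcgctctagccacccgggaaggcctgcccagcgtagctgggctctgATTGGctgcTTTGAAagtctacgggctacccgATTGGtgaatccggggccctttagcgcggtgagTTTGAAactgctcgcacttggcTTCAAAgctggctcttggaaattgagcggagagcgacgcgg
PLK1, chr16:23678639-23678938, plus strand: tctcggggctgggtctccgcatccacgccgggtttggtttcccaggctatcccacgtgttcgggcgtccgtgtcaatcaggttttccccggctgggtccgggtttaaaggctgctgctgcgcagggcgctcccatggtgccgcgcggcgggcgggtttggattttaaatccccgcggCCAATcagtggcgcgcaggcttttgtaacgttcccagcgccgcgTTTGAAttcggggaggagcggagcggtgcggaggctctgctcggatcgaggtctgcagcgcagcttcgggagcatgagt
CDC20, chr1:43358731-43359030, plus strand: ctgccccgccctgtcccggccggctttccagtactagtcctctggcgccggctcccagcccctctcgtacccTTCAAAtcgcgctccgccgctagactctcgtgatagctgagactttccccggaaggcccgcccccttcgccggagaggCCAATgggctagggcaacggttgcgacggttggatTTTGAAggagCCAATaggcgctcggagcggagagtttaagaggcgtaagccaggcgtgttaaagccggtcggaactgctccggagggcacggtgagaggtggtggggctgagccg
CCNB2, chr15:59104896-59105195, plus strand: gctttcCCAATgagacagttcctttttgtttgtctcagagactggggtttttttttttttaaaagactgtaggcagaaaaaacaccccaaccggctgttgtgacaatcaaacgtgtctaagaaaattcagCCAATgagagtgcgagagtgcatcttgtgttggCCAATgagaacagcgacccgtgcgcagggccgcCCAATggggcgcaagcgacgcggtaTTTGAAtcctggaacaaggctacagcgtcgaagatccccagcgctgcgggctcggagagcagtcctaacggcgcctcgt
In both PLK1 and CCNB2 the CHR began at position -29. CCNB2 held 4 CCAAT boxes, at -244, -120, -87 and -54, and PLK1 held 1, at -73. CDC20 had CCAAT boxes at -100 and -55 with a CHR at -65. The printed CDK1 window held CCAAT boxes at -78 and -46 and CHR matches at -69, -13 and 9. At another start, which is not printed, CDK1 had a CCAAT box at -150 and a CHR at -161.

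The RefSeq table held 37 of the 43 genes, all but FOXM1, AURKA, BIRC5, TTK, UBE2C and TPX2. A CHR stood in the window of 28 of the 37 (75.7%), against 19.5% of the 27305 genes in the table and 16.4% of its 35116 promoters of the same length. On the strand of the gene alone, the CHR was found in 25 of 37 (67.6%) against 11.8% of genes. Counting both strands, it began between 50 bases before the start and the start itself in 16 of the 28. A CCAAT box was found in 28 of 37 genes (75.7%) against 39.7% of genes and 34.6% of promoters, and 20 of the 37 held at least 2. CHR and CCAAT box stood together in 22 genes, against 9.02% of all genes. Sites for E2F (searched as TTCCCGC, as the similar TTGGCGC, and further as TTCGCGC and then as TTGCCGC), the factor family of DNA replication genes, were found in 11 of 37 (29.7%) against 15.3% of genes and 13% of promoters. No searched motif contains another, but a CCAAT box read on the opposite strand shares TTGG with TTGGCGC, so that matches of these can overlap. CCNB1, PTTG1, MYBL2, AURKB, NEK2, KIF2C, KIF20A, NCAPH and CENPE had no match to the CHR letters in their windows. A match is a run of letters and not a measured binding site, and 5 genes with several starts were counted once if any window held the motif.

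**Figure D1:**
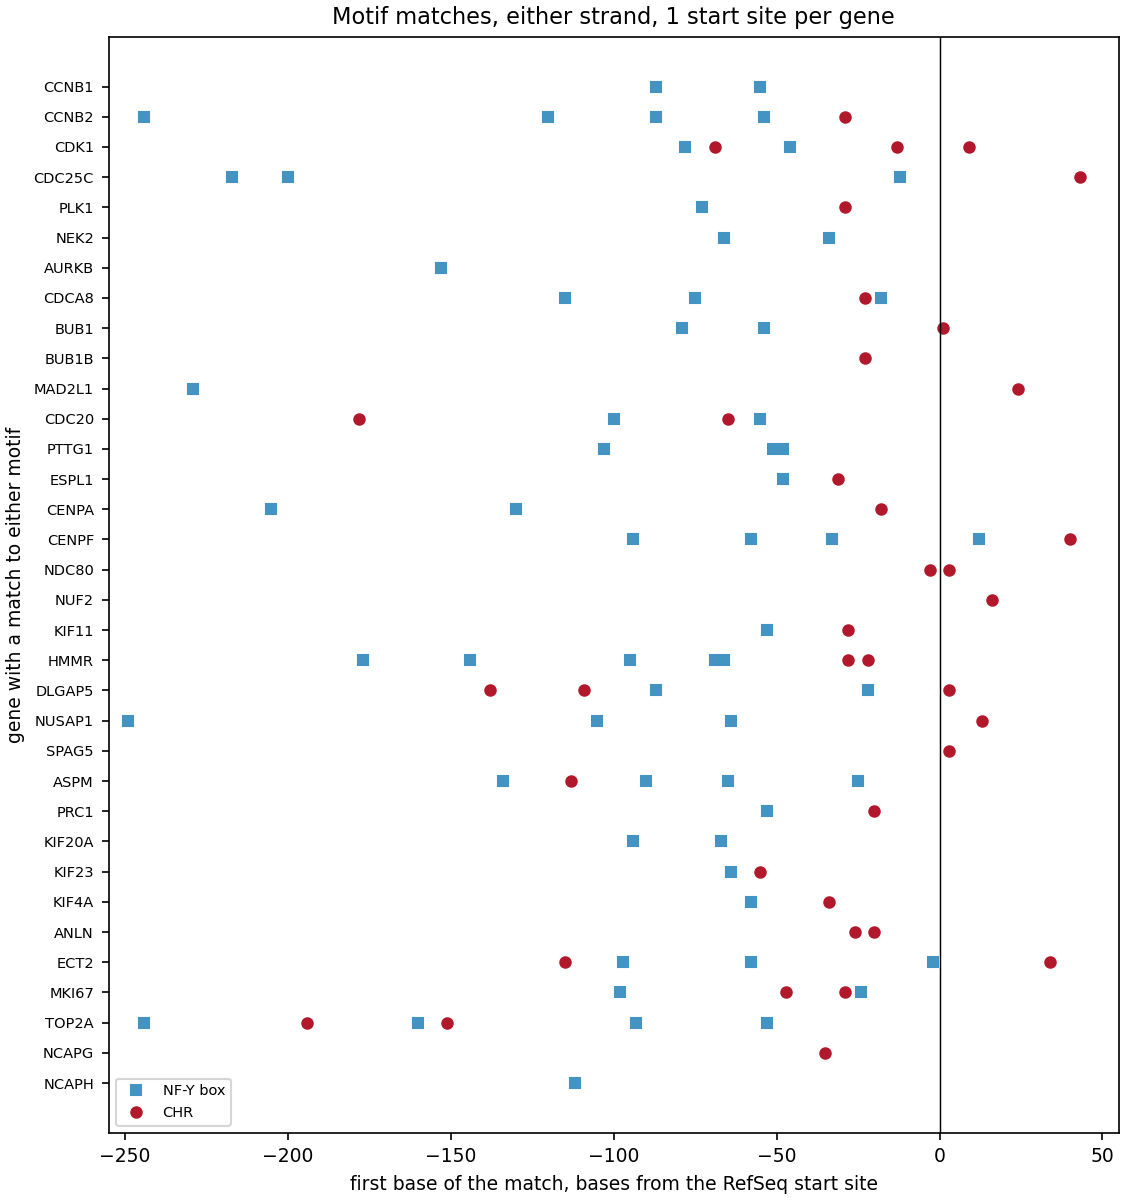
Positions of CHR matches (circles) and CCAAT boxes (squares, NF-Y box) in the promoters of the 34 listed genes with either motif. The horizontal axis is the distance in bases of the first base of a match from the RefSeq start of transcription, and each row is a gene, shown at the start with the most matches. Most circles lie close to the start, while the squares reach further upstream. Counted over all starts, 16 genes have a CHR in the last 50 bases before a start. CDC25C is among them through a start that is not drawn, and at the drawn start its CHR begins at 43.

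The unit of a level is CPM, computed on library sizes normalised by edgeR's TMM method. Values of a group are listed in replicate order, with the summed library first where there is one. Depth and markers of the whole series were as follows. Basal keratin genes of mammary epithelium were abundant in every library (KRT5 7079 to 20009 CPM), while the immune markers PTPRC, CD3E and LYZ and the endothelial markers VWF and CDH5 stayed at or below 0.184 CPM and CD68 between 0.172 and 1.22 CPM. The fibroblast markers COL1A2, COL3A1 and PDGFRA were at 0 to 0.436 CPM, but COL1A1 (44.0 to 278 CPM) and DCN (6.30 to 413 CPM) were present, and DCN was highest in Control replicates 1-2 and lowest in TRA2B-OE replicate 3. Its part in the differences described below was not tested. SRSF9 stood at 359 to 839 CPM in SRSF9-OE against 91.6 to 117 CPM elsewhere, and SRSF4 at 168 to 187 CPM in SRSF4-OE against 71.4 to 106 CPM. SRSF6 in the libraries labelled SRSF6-OE (283 and 417 CPM) lay within the range of the other libraries (237 to 448 CPM). SRSF2-OE replicate 1 (SRSF2 214 CPM) and TRA2B-OE replicate 3 (TRA2B 147 CPM) also lay within the range of libraries with other labels, and their mitochondrial shares of counts, 16.4% and 14.3%, were the highest, against 6.45% to 11.96% in the other libraries.

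The 43 genes moved together from library to library, and libraries of the same group lay far apart. For each gene, the level of a library was expressed as log2 CPM minus the gene's mean over the 14 libraries, and the median of the 43 genes was taken. It was -1.51 in Control replicates 1-2, -1.27 in SRSF2-OE replicate 2 and -1.37 in SRSF9-OE replicate 3. Every listed gene was below its own mean in these 3 libraries and in Control replicate 3, so in both Control libraries. The highest median was 1.08 in TRA2B-OE replicate 3, followed by 0.88 in SRSF4-OE replicate 3, 0.73 in SRSF2-OE replicate 1 and 0.73 in SRSF6-OE replicates 1-2. The remaining libraries lay between -0.24 (Control replicate 3) and 0.43 (SRSF9-OE replicate 1). The same median over all genes tested stayed between -0.03 and 0.03 in every library.

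In 41 of the 43 genes the 3 lowest libraries were exactly the 3 with the lowest medians, which was so for 1.36% of all genes tested. Those 3 libraries were picked by the median of these same genes, so a higher count than among all genes is partly built in. Control replicates 1-2 was the lowest library for 23 of the listed genes, and SRSF2-OE replicate 2 and SRSF9-OE replicate 3 for 10 each. TRA2B-OE replicate 3 was the highest for 33, SRSF4-OE replicate 3 for 7, SRSF6-OE replicates 1-2 for 2 and SRSF6-OE replicate 3 for 1. The median span of a listed gene from its lowest to its highest library was 7.22-fold, against 2.72-fold for all genes tested. A span above 5-fold was seen in 39 of the 43 and in 25.5% of all genes.

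The Control libraries lay far apart. All 43 genes were higher in Control replicate 3 than in Control replicates 1-2, by a median of 2.33-fold (1.35-fold for ECT2 to 3.79-fold for MKI67), while the median over all genes was 0.995-fold. These Control libraries also differ in label set, since the descriptions of the summed libraries carry a library ID and those of the other 10 libraries a number. The label set is a term of the model, and in that fit 42 of the 43 genes were higher in the numbered libraries. The median log2 difference was 0.66 against -0.007 over all genes. This difference exceeds the medians of SRSF2-OE and SRSF9-OE against Control given below. Only Control, SRSF4-OE, TRA2B-OE and SRSF6-OE hold both label sets, and they did not all go the same way. In Control (-0.24 against -1.51), SRSF4-OE (0.88 against 0.03) and TRA2B-OE (1.08 against 0.22) the numbered library had the higher median level. In SRSF6-OE it had the lower (0.27 against 0.73). No listed gene was called for the label set (0.0328% of all genes). Between lanes of the same library, the median of the signed log2 differences of the listed genes was 0.05 to 0.08. The largest difference of a single listed gene, in either direction, was 0.18 to 0.38 log2 units per library.

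**Figure D2:**
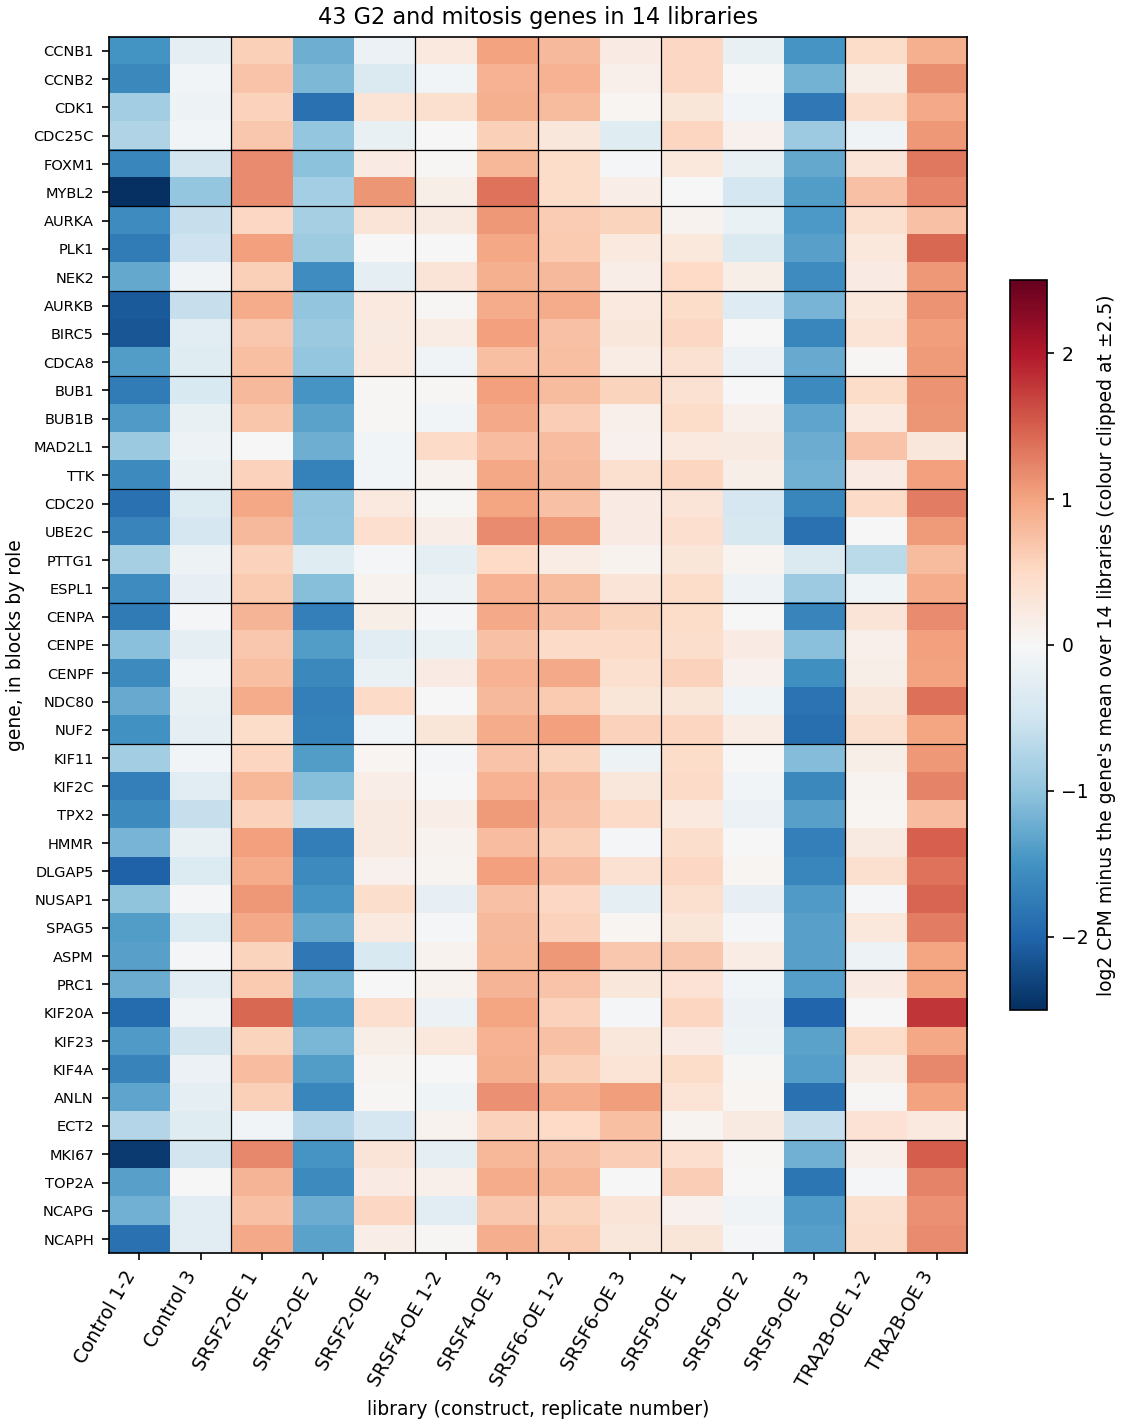
Level of each of the 43 genes (rows, in blocks by role) in each of the 14 libraries (columns, in blocks by group), as log2 CPM minus the gene's mean over the libraries, with the colour clipped at 2.5 on either side. Control replicates 1-2, SRSF2-OE replicate 2 and SRSF9-OE replicate 3 are blue from top to bottom, and TRA2B-OE replicate 3 and SRSF4-OE replicate 3 are red.

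The design asks how each overexpression group differed from Control. In edgeR's quasi-likelihood fit, the median log2 fold change of the 43 genes against Control was 0.54 in SRSF2-OE (43 of 43 higher), 1.30 in SRSF4-OE (43 higher), 1.46 in SRSF6-OE (43 higher), 0.37 in SRSF9-OE (42 higher) and 1.501 in TRA2B-OE (43 higher). None of these differences passed the test for any single gene. With Benjamini-Hochberg adjustment over 21326 genes, edgeR called 0 of the 43 in each of the 5 contrasts and in the F test over all 5 groups. The shares of all genes called were 0% for SRSF2-OE, 0% for SRSF4-OE, 0.00469% for SRSF6-OE, 0% for SRSF9-OE, 0.00938% for TRA2B-OE and 0.0422% for the F test. The 5 contrasts share the Control libraries, and their values are set side by side without a measure of their likeness.

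At an unadjusted edgeR p under 0.05, the count of listed genes was 1 for SRSF2-OE (13.4% of all genes), 10 for SRSF4-OE (14.9%), 16 for SRSF6-OE (19.5%), 0 for SRSF9-OE (4.47%), 19 for TRA2B-OE (12%) and 4 in the F test (13.6%). DESeq2, with the same design, called MYBL2 in SRSF2-OE (2.37% of all genes called), MYBL2, AURKA and TPX2 in SRSF4-OE (2.7%), MYBL2, MKI67, AURKB, TPX2, AURKA and ECT2 in SRSF6-OE (5.81%), none in SRSF9-OE (0.0703%) and MYBL2 in TRA2B-OE (2.12%). Its test over all groups called ECT2, MYBL2 and AURKA (7.41%). Limma-voom called 0 of the 43 in every comparison. The share of all genes that it called is not given, so this 0 is not read as a result about the listed genes. With the 18 samples entered as separate replicates, edgeR called 1 of the 43 in SRSF2-OE (6.4% of all genes), 18 in SRSF4-OE (16.5%), 33 in SRSF6-OE (19.2%), 0 in SRSF9-OE (0.0238%), 21 in TRA2B-OE (13.8%) and 8 in the F test (17.7%). That fit takes samples that share library ID and barcode as replicates. With only the libraries of a contrast fitted, edgeR called 42 of the 43 in SRSF4-OE (12.2% of all genes) and 0 in SRSF2-OE (0%), SRSF6-OE (0.744%), SRSF9-OE (0.00501%) and TRA2B-OE (0%). Such a fit keeps the label set term on very few libraries. Its residual degrees of freedom are far fewer than the 7 of the main fit, and its estimate of the spread is weak.

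Every library of the group lay above both Control libraries for 38 of 43 genes in SRSF4-OE (25.3% of all genes), 40 in SRSF6-OE (22.8%) and 38 in TRA2B-OE (18.3%). The exceptions were CENPA, KIF20A, NCAPG, NUSAP1 and PTTG1 in SRSF4-OE, CDC25C, KIF11 and NUSAP1 in SRSF6-OE, and ASPM, CDC25C, NUSAP1, PTTG1 and TOP2A in TRA2B-OE. In SRSF2-OE this held for MYBL2 alone (16.7% of all genes) and in SRSF9-OE for none (16.5%). Each of these groups holds a library with a median level near that of Control replicates 1-2.

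The size of the differences depended on single libraries. Without Control replicates 1-2 the 5 medians were 0.39, 0.94, 1.04, 0.11 and 1.14, in the order above, and without Control replicate 3 they were 1.13, 1.84, 1.95, 0.92 and 1.96. In SRSF2-OE the median was 0.02 without replicate 1 (22 of 43 higher) and 0.96 without replicate 2. In SRSF9-OE it was -0.034 without replicate 1 (18 higher) and 0.72 without replicate 3. In SRSF6-OE it was 0.69 without replicates 1-2 and 2.09 without replicate 3. SRSF4-OE and TRA2B-OE moved less on leaving out their own libraries, to 1.23 and 1.44, and to 1.30 and 1.65. With the pair of libraries of highest mitochondrial share left out together, the median was 0.09 in SRSF2-OE and 1.30 in TRA2B-OE.

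**Figure D3:**
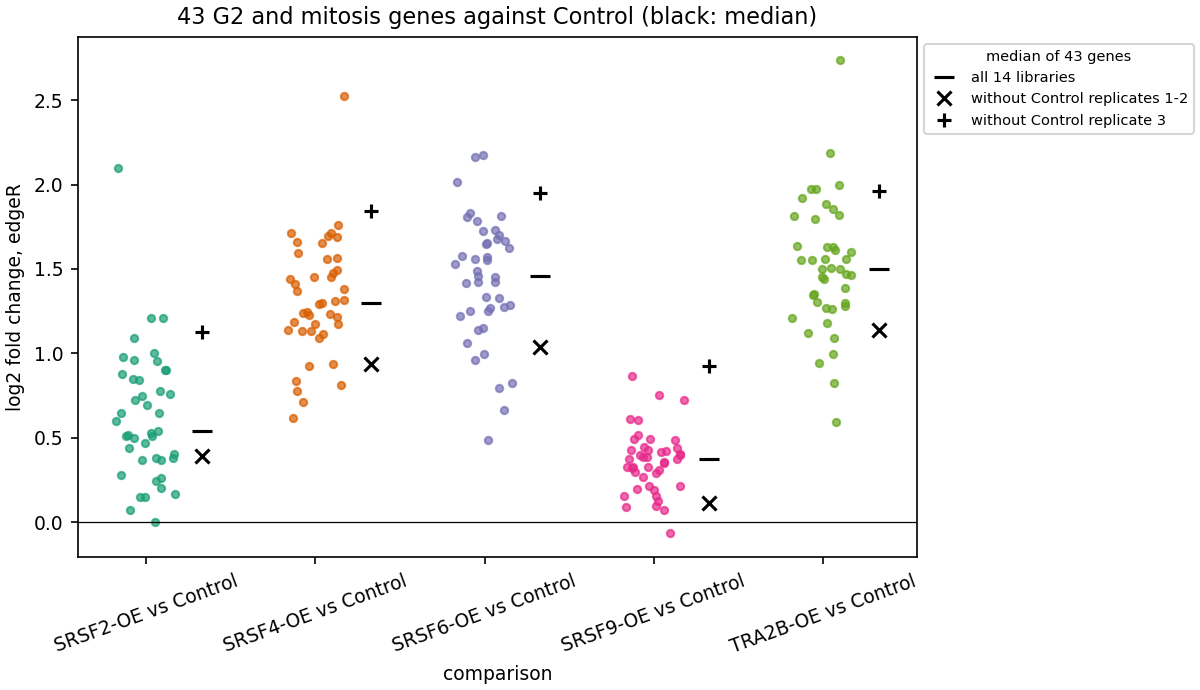
Log2 fold change of each of the 43 genes (points) against Control in the 5 overexpression groups, from edgeR. The bars at the right of each column of points are the medians over all 14 libraries (0.54, 1.30, 1.46, 0.37 and 1.501), and the crosses and plus signs the medians without 1 of the Control libraries, which spread widely around them.

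Within a label set, each library could be set against the Control library of the same set. Against Control replicate 3, all 43 genes were higher in SRSF2-OE replicate 1 (median log2 difference 0.96), SRSF4-OE replicate 3 (1.13), SRSF9-OE replicate 1 (0.65) and TRA2B-OE replicate 3 (1.32). SRSF6-OE replicate 3 was higher in 40 genes (0.55), SRSF9-OE replicate 2 in 39 (0.22) and SRSF2-OE replicate 3 in 36 (0.43). SRSF2-OE replicate 2 was lower in all but 1 gene (-1.05), and SRSF9-OE replicate 3 was lower in all 43 (-1.12). Against Control replicates 1-2, all 43 genes were higher in the summed libraries of SRSF4-OE (1.65), SRSF6-OE (2.26) and TRA2B-OE (1.66). With 1 library on each side these differences have no replicate check.

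The transcription factors of the programme, a role of only MYBL2 and FOXM1, had the largest role median in all 5 contrasts, at 1.59, 1.99, 1.75, 0.66 and 2.30 log2 units in SRSF2-OE, SRSF4-OE, SRSF6-OE, SRSF9-OE and TRA2B-OE. MYBL2 had the largest fold change of all 43 genes in every contrast. MYBL2 was measured at 2.99 and 9.85 CPM in Control, 43.7, 10.7 and 41.4 CPM in SRSF2-OE, 21.5 and 49.2 CPM in SRSF4-OE, 26.7 and 21.7 CPM in SRSF6-OE, 19.3, 14.2 and 7.29 CPM in SRSF9-OE, and 32 and 44.7 CPM in TRA2B-OE. In SRSF4-OE, SRSF6-OE and TRA2B-OE no library overlapped the Control libraries, and the same held in SRSF2-OE, where replicate 2 (10.7 CPM) was only just above Control replicate 3 (9.85 CPM). The log2 fold changes of MYBL2 were 2.10 ± 0.67, 2.52 ± 0.69, 2.17 ± 0.70, 0.86 ± 0.64 and 2.74 ± 0.70 (estimate ± SE). Adjusted p from edgeR was 0.249, 0.234, 0.181, 0.870 and 0.224, and from DESeq2 0.039, 0.0091, 0.020, 0.940 and 0.0033. MYBL2 departed most from the other genes of the list: in Control replicates 1-2 it lay 1.17 log2 units below the median of the list and in SRSF2-OE replicate 3 it lay 0.96 above. FOXM1, the forkhead factor that drives late cell cycle genes, stood at 11.9 and 26.6 CPM in Control, 83, 18.1 and 42.6 CPM in SRSF2-OE, 37.4 and 65.1 CPM in SRSF4-OE, 50.2 and 35.9 CPM in SRSF6-OE, 44.2, 32.5 and 15.2 CPM in SRSF9-OE, and 46 and 91.8 CPM in TRA2B-OE. The SRSF2-OE libraries of FOXM1 were either above both Control libraries (replicates 1 and 3) or between them (replicate 2), and its log2 fold change there was 1.09 ± 0.64. In the other contrasts FOXM1 stood at 1.45, 1.34, 0.45 and 1.86, which in SRSF6-OE was below the list's median of 1.46.

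**Figure D4:**
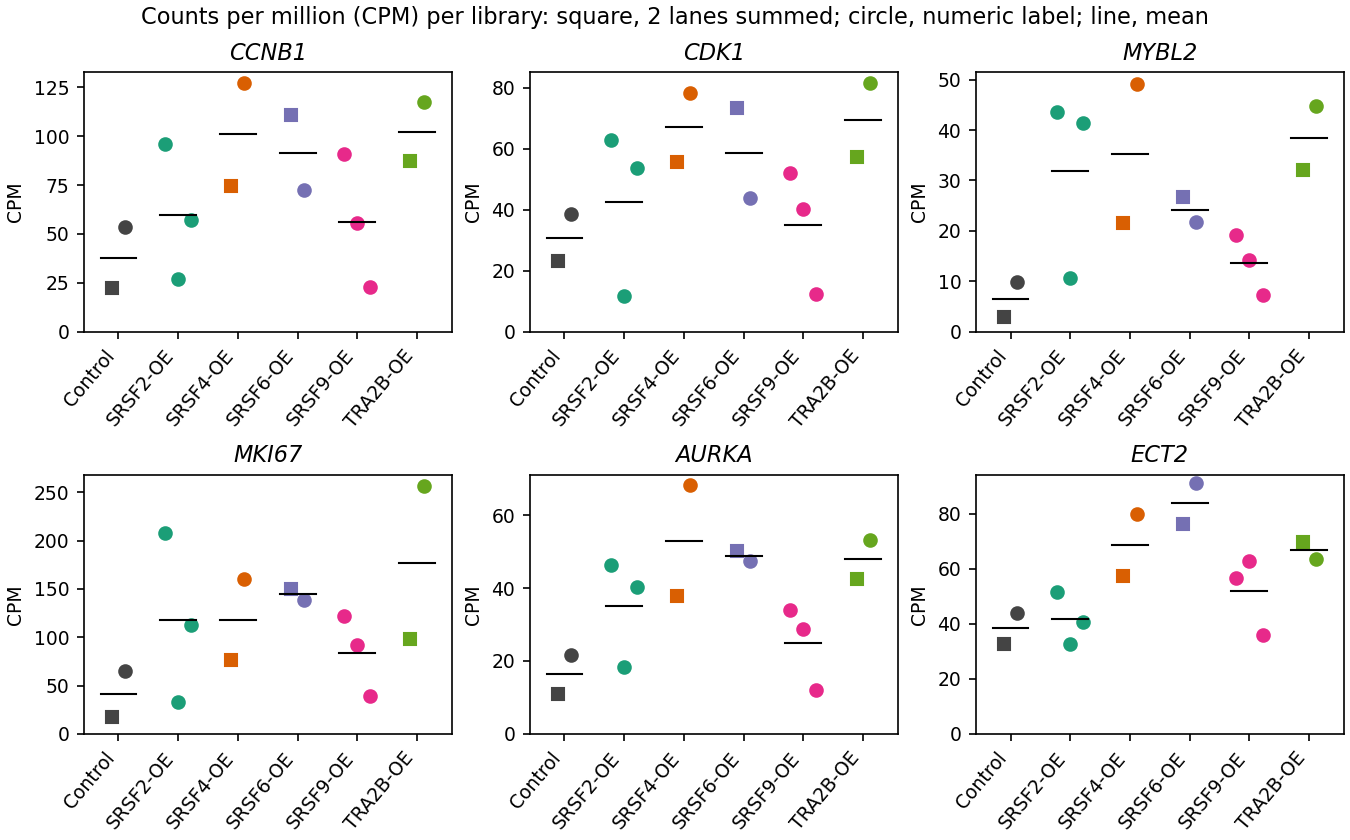
CPM of CCNB1, CDK1, MYBL2, MKI67, AURKA and ECT2 in each library, by group, on axes that start at 0. Squares are libraries summed from 2 lanes, circles the other libraries, and lines the group means. In each panel the SRSF4-OE, SRSF6-OE and TRA2B-OE libraries lie above both Control libraries. The SRSF2-OE and SRSF9-OE libraries overlap them, except for MYBL2 in SRSF2-OE. The genes shown were picked by hand, and others of the list, such as NUSAP1, overlap Control in every group. Of all genes tested, 25.3%, 22.8% and 18.3% lie above Control in this way in SRSF4-OE, SRSF6-OE and TRA2B-OE.

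Among the genes of mitotic entry, the role medians were 0.37, 1.16, 1.21, 0.28 and 1.31 in the same order of contrasts. CCNB1, which encodes cyclin B1, stood at 22.3 and 53.4 CPM in Control, 95.8, 27.1 and 56.9 CPM in SRSF2-OE, 74.7 and 127 CPM in SRSF4-OE, 111 and 72.3 CPM in SRSF6-OE, 90.7, 55.5 and 22.7 CPM in SRSF9-OE, and 87.2 and 117 CPM in TRA2B-OE. Its SRSF2-OE and SRSF9-OE libraries reached from the level of Control replicates 1-2 to well above Control replicate 3, while the other 3 groups did not overlap Control. CDK1, the kinase that cyclin B activates, was measured at 23.1 and 38.6 CPM in Control, 62.7, 11.6 and 53.6 CPM in SRSF2-OE, 55.6 and 78.4 CPM in SRSF4-OE, 73.3 and 43.9 CPM in SRSF6-OE, 52, 40.3 and 12.2 CPM in SRSF9-OE, and 57.3 and 81.6 CPM in TRA2B-OE. SRSF2-OE replicate 2 and SRSF9-OE replicate 3 were below both Control libraries for CDK1. CDC25C encodes a phosphatase that removes the inhibitory phosphates from CDK1. CDC25C gave 6.13 and 9.91 CPM in Control, 16.4, 5.27 and 9.04 CPM in SRSF2-OE, 10.5 and 15.6 CPM in SRSF4-OE, 12.5 and 8.35 CPM in SRSF6-OE, 14.9, 11.1 and 5.51 CPM in SRSF9-OE, and 9.70 and 21.9 CPM in TRA2B-OE. CDC25C was among the 3 smallest fold changes in SRSF4-OE (0.71 ± 0.57), SRSF6-OE (0.48 ± 0.58) and TRA2B-OE (0.94 ± 0.58), with an overlap of the groups in the latter pair.

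The mitotic kinases had role medians of 0.90, 1.59, 1.67, 0.40 and 1.61. AURKA, the kinase of spindle poles, stood at 10.9 and 21.7 CPM in Control, 46.4, 18.2 and 40.2 CPM in SRSF2-OE, 37.8 and 68.3 CPM in SRSF4-OE, 50.1 and 47.3 CPM in SRSF6-OE, 34.1, 28.7 and 12 CPM in SRSF9-OE, and 42.5 and 53.2 CPM in TRA2B-OE. Control and the groups SRSF4-OE, SRSF6-OE and TRA2B-OE did not overlap, and the log2 fold changes there were 1.71 ± 0.52, 1.68 ± 0.52 and 1.61 ± 0.52. Adjusted p for AURKA was 0.244, 0.176 and 0.292 in edgeR and 0.036, 0.028 and 0.067 in DESeq2. PLK1, Polo-like kinase 1, was measured at 10.9 and 25.3 CPM in Control, 74, 19.7 and 36.8 CPM in SRSF2-OE, 36.3 and 70.5 CPM in SRSF4-OE, 57 and 42.8 CPM in SRSF6-OE, 43.4, 28.3 and 14.2 CPM in SRSF9-OE, and 43.9 and 97.6 CPM in TRA2B-OE. PLK1 was highest in TRA2B-OE replicate 3 and lowest in Control replicates 1-2. NEK2, a centrosome kinase, ranged from 7.72 CPM in SRSF9-OE replicate 3 to 48.4 CPM in TRA2B-OE replicate 3.

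The chromosomal passenger complex corrects wrong attachments of chromosomes to the spindle, and its genes had medians of 0.87, 1.71, 1.73, 0.61 and 1.79. AURKB, its kinase, stood at 3.53 and 10.1 CPM in Control, 28.7, 7.64 and 17.8 CPM in SRSF2-OE, 15.4 and 28.6 CPM in SRSF4-OE, 28.6 and 17.8 CPM in SRSF6-OE, 20.8, 12 and 6.69 CPM in SRSF9-OE, and 18 and 33 CPM in TRA2B-OE. AURKB was among the 3 largest fold changes in SRSF2-OE (1.21 ± 0.65), SRSF4-OE (1.76 ± 0.68), SRSF6-OE (2.01 ± 0.70) and SRSF9-OE (0.75 ± 0.64), with adjusted p of 0.447, 0.287, 0.195 and 0.874 in edgeR. BIRC5, which encodes survivin, was measured at 5.83 and 21.2 CPM in Control, 41.3, 13.5 and 30.2 CPM in SRSF2-OE, 29.4 and 52.3 CPM in SRSF4-OE, 42.8 and 31.2 CPM in SRSF6-OE, 36.7, 25.7 and 8.27 CPM in SRSF9-OE, and 32.6 and 52.9 CPM in TRA2B-OE. CDCA8, which encodes borealin, gave 6.33 and 13.4 CPM in Control, 28, 8.49 and 19.7 CPM in SRSF2-OE, 15.6 and 28.1 CPM in SRSF4-OE, 27.9 and 18.9 CPM in SRSF6-OE, 21.6, 14.9 and 6.93 CPM in SRSF9-OE, and 16.8 and 34.7 CPM in TRA2B-OE. All 3 subunits had their lowest library in Control replicates 1-2 and their highest in TRA2B-OE replicate 3.

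Spindle checkpoint genes had role medians of 0.43, 1.30, 1.41, 0.44 and 1.46. BUB1B, which encodes the checkpoint kinase-like protein BUBR1, stood at 8.45 and 19.9 CPM in Control, 36.8, 8.92 and 23.1 CPM in SRSF2-OE, 21.7 and 43.4 CPM in SRSF4-OE, 35 and 24.8 CPM in SRSF6-OE, 31.1, 24.7 and 9.13 CPM in SRSF9-OE, and 26.7 and 48.5 CPM in TRA2B-OE. MAD2L1, which encodes the MAD2 protein that holds CDC20 inactive, was measured at 14.6 and 25.4 CPM in Control, 27.8, 12.1 and 26.5 CPM in SRSF2-OE, 38.8 and 47.9 CPM in SRSF4-OE, 47.7 and 30.1 CPM in SRSF6-OE, 33, 32.7 and 11.8 CPM in SRSF9-OE, and 45.8 and 33.9 CPM in TRA2B-OE. MAD2L1 departed from the list in 2 libraries with a high overall level, at 0.74 log2 units below the list's median in SRSF2-OE replicate 1 and 0.80 below it in TRA2B-OE replicate 3. Its fold change was among the 3 smallest in SRSF2-OE, at 0.15 ± 0.51. The checkpoint kinase genes BUB1 and TTK spanned 7.35-fold and 6.55-fold over the libraries.

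Anaphase genes had role medians of 0.75, 1.40, 1.59, 0.34 and 1.41. CDC20, the activator of the anaphase-promoting complex, stood at 11.8 and 34.3 CPM in Control, 84.7, 21.9 and 51.4 CPM in SRSF2-OE, 44.3 and 85.6 CPM in SRSF4-OE, 72.3 and 49.7 CPM in SRSF6-OE, 53.9, 32.3 and 14 CPM in SRSF9-OE, and 60.1 and 104 CPM in TRA2B-OE. Its log2 fold changes were 1.56 ± 0.70 in SRSF4-OE, 1.65 ± 0.72 in SRSF6-OE and 1.92 ± 0.71 in TRA2B-OE. PTTG1, which encodes securin, was measured at 50.6 and 82.3 CPM in Control, 135, 72.3 and 88.3 CPM in SRSF2-OE, 77 and 127 CPM in SRSF4-OE, 102 and 95.2 CPM in SRSF6-OE, 111, 94.5 and 69.5 CPM in SRSF9-OE, and 56.6 and 156 CPM in TRA2B-OE. PTTG1 spanned only 3.09-fold, and TRA2B-OE replicates 1-2 was close to Control replicates 1-2, so that these groups overlapped. It was among the 3 smallest fold changes in SRSF4-OE (0.62 ± 0.37), SRSF6-OE (0.66 ± 0.37) and TRA2B-OE (0.59 ± 0.37). Against the list's median, PTTG1 lay 1.01 log2 units higher in SRSF9-OE replicate 3, 0.96 higher in SRSF2-OE replicate 2 and 0.89 units lower (-0.89) in TRA2B-OE replicates 1-2. UBE2C, the ubiquitin-conjugating enzyme of the anaphase-promoting complex, reached 70.4 CPM in SRSF4-OE replicate 3 and stood at 8.56 CPM in SRSF9-OE replicate 3. ESPL1, the gene of separase, which cuts the cohesin ring, spanned 7.20 to 40.4 CPM.

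Kinetochore genes had role medians of 0.41, 1.29, 1.55, 0.30 and 1.51. CENPF, a large outer kinetochore protein, stood at 37.4 and 107 CPM in Control, 191, 36.9 and 101 CPM in SRSF2-OE, 130 and 206 CPM in SRSF4-OE, 217 and 149 CPM in SRSF6-OE, 168, 122 and 38.9 CPM in SRSF9-OE, and 126 and 225 CPM in TRA2B-OE. CENPE, a kinesin that brings chromosomes to the equator, was measured at 13.6 and 24 CPM in Control, 44.7, 10.7 and 23 CPM in SRSF2-OE, 25.1 and 46.8 CPM in SRSF4-OE, 38.9 and 39.3 CPM in SRSF6-OE, 37.9, 32.2 and 13.6 CPM in SRSF9-OE, and 30.4 and 57.1 CPM in TRA2B-OE. NDC80, which encodes the microtubule-binding subunit of the NDC80 complex, gave 4.49 and 9.44 CPM in Control, 20.5, 3.29 and 15 CPM in SRSF2-OE, 10.9 and 19 CPM in SRSF4-OE, 17.1 and 13.3 CPM in SRSF6-OE, 13.3, 10.05 and 3.00 CPM in SRSF9-OE, and 13.1 and 28 CPM in TRA2B-OE. For all of these genes SRSF2-OE replicate 2 was as low as or lower than Control replicates 1-2. NDC80 was among the 3 smallest fold changes in SRSF9-OE, at 0.09 ± 0.75. NUF2, the partner of NDC80, was one of 2 genes whose highest library was SRSF6-OE replicates 1-2 (26.6 CPM), and CENPA, the centromeric histone, ranged from 1.72 to 13.3 CPM.

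Spindle assembly genes had role medians of 0.68, 1.19, 1.45, 0.36 and 1.52. TPX2, which activates Aurora A on microtubules, stood at 29.7 and 60.2 CPM in Control, 132, 57.7 and 104 CPM in SRSF2-OE, 100 and 187 CPM in SRSF4-OE, 148 and 124 CPM in SRSF6-OE, 105, 81.1 and 34.9 CPM in SRSF9-OE, and 92.5 and 152 CPM in TRA2B-OE. TPX2 libraries of SRSF4-OE, SRSF6-OE and TRA2B-OE lay above Control without overlap, with log2 fold changes of 1.69 ± 0.51, 1.72 ± 0.52 and 1.47 ± 0.51. Adjusted p for TPX2 was 0.245, 0.172 and 0.321 in edgeR and 0.038, 0.021 and 0.11 in DESeq2. ASPM, a protein of spindle poles, was measured at 28.1 and 70.2 CPM in Control, 106, 21 and 55.5 CPM in SRSF2-OE, 77.3 and 128 CPM in SRSF4-OE, 154 and 115 CPM in SRSF6-OE, 116, 82.6 and 28.3 CPM in SRSF9-OE, and 66.8 and 143 CPM in TRA2B-OE. ASPM was highest in SRSF6-OE replicates 1-2 and its TRA2B-OE libraries overlapped Control. DLGAP5, which encodes the spindle protein HURP, gave 4.98 and 16.1 CPM in Control, 38.4, 6.72 and 21.8 CPM in SRSF2-OE, 21.2 and 41.3 CPM in SRSF4-OE, 34.7 and 26.3 CPM in SRSF6-OE, 28.9, 20.9 and 6.54 CPM in SRSF9-OE, and 26.9 and 51.7 CPM in TRA2B-OE. DLGAP5 was among the 3 largest fold changes in TRA2B-OE (1.99 ± 0.81).

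NUSAP1, a microtubule bundling protein, stood at 21.9 and 42.7 CPM in Control, 92.3, 15.8 and 59 CPM in SRSF2-OE, 38 and 72.3 CPM in SRSF4-OE, 62.5 and 37.3 CPM in SRSF6-OE, 57.4, 37.9 and 16.3 CPM in SRSF9-OE, and 42 and 120 CPM in TRA2B-OE. NUSAP1 had the only fold change below 0 of the list in any contrast, -0.07 ± 0.74 in SRSF9-OE, and its groups overlapped Control in all 5 contrasts. KIF11, the kinesin that pushes spindle poles apart, was measured at 21.4 and 37 CPM in Control, 56.4, 14.8 and 40.4 CPM in SRSF2-OE, 38.1 and 64 CPM in SRSF4-OE, 57.5 and 35.8 CPM in SRSF6-OE, 53.5, 39.3 and 18.2 CPM in SRSF9-OE, and 42.9 and 82.3 CPM in TRA2B-OE. KIF11 had 1 of the 3 smallest fold changes in SRSF6-OE, at 0.79 ± 0.63. The other spindle genes HMMR, KIF2C and SPAG5 spanned 9.27-fold, 7.77-fold and 6.39-fold.

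The genes of the central spindle and cytokinesis, with role medians of 0.51, 1.31, 1.44, 0.30 and 1.45, included ECT2, the gene of the list that varied least. ANLN, which encodes the actin-binding protein anillin of the cleavage furrow, stood at 36.3 and 76.5 CPM in Control, 137, 29.2 and 92.3 CPM in SRSF2-OE, 84.5 and 200 CPM in SRSF4-OE, 171 and 188 CPM in SRSF6-OE, 115, 93.5 and 25.1 CPM in SRSF9-OE, and 92.9 and 183 CPM in TRA2B-OE. PRC1, the bundler of the central spindle, was measured at 25.3 and 49.2 CPM in Control, 94.1, 27 and 59.98 CPM in SRSF2-OE, 63.3 and 108 CPM in SRSF4-OE, 98.2 and 73.2 CPM in SRSF6-OE, 76.5, 57.2 and 23.1 CPM in SRSF9-OE, and 69.2 and 118 CPM in TRA2B-OE. ECT2, an exchange factor for RhoA at the furrow, gave 32.6 and 44 CPM in Control, 51.6, 32.6 and 40.5 CPM in SRSF2-OE, 57.2 and 79.98 CPM in SRSF4-OE, 76.1 and 91.3 CPM in SRSF6-OE, 56.6, 62.6 and 36.1 CPM in SRSF9-OE, and 69.8 and 63.6 CPM in TRA2B-OE. ECT2 spanned 2.80-fold, close to the 2.72-fold median of all genes tested, and was highest in SRSF6-OE replicate 3. It also had the smallest SE: its log2 fold changes were 0.00 ± 0.27, 0.84 ± 0.28, 1.14 ± 0.28, 0.32 ± 0.27 and 0.83 ± 0.28 in the order above. ECT2 had an adjusted p of 0.152 in edgeR and 0.012 in DESeq2 for SRSF6-OE. KIF20A, a kinesin of the midzone, spanned 13.5-fold, from 10.1 CPM in SRSF9-OE replicate 3 to 136 CPM in TRA2B-OE replicate 3. KIF23 and KIF4A, further kinesins of the midzone, spanned 5.23-fold and 7.26-fold.

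Genes of mitotic chromosomes had role medians of 0.75, 1.33, 1.41, 0.33 and 1.66. TOP2A, topoisomerase II alpha, stood at 52.2 and 133 CPM in Control, 241, 44.4 and 154 CPM in SRSF2-OE, 147 and 254 CPM in SRSF4-OE, 238 and 135 CPM in SRSF6-OE, 205, 133 and 38.4 CPM in SRSF9-OE, and 132 and 316 CPM in TRA2B-OE. MKI67, the gene of the proliferation marker Ki-67, was measured at 17.3 and 65.5 CPM in Control, 208, 32.7 and 112 CPM in SRSF2-OE, 76.1 and 160 CPM in SRSF4-OE, 150 and 139 CPM in SRSF6-OE, 122, 91.9 and 39.2 CPM in SRSF9-OE, and 98 and 256 CPM in TRA2B-OE. MKI67 had the second widest span of the list (14.9-fold, after 16.4-fold for MYBL2), and its 3-library groups reached below (SRSF2-OE and SRSF9-OE) and above Control replicate 3. The log2 fold changes of MKI67 were 1.21 ± 0.73, 1.65 ± 0.77, 2.16 ± 0.79, 0.73 ± 0.72 and 2.19 ± 0.78. In SRSF6-OE the adjusted p of MKI67 was 0.207 in edgeR and 0.040 in DESeq2. NCAPG and NCAPH, subunits of condensin, which compacts chromosomes, spanned 5.89-fold and 8.24-fold.

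Other gene groups of the cell cycle were read from lists made by hand, and edgeR called 0 of their members in every contrast. A list of 58 other G2 and mitosis genes, of which 55 were tested, had medians of 0.49, 1.09, 1.28, 0.35 and 1.29 log2 units in the order above, with 52, 54, 55, 47 and 54 members higher. DESeq2 called 1, 2, 12, 0 and 6 of these 55, all higher, where it called 2.37%, 2.7%, 5.81%, 0.0703% and 2.12% of all genes. The list holds CDC25B, the phosphatase that starts CDK1 activation, at 0.38 ± 0.31, 1.04 ± 0.33, 1.16 ± 0.33, 0.64 ± 0.32 and 0.23 ± 0.33 in the order above. CKAP5, a microtubule polymerase, stood at -0.16 ± 0.18, 0.17 ± 0.18, 0.73 ± 0.18, 0.12 ± 0.18 and 0.13 ± 0.18. In SRSF6-OE the adjusted p was 0.166 for CDC25B and 0.152 for CKAP5 in edgeR, and 0.026 and 0.011 in DESeq2. DESeq2 called neither gene in the other contrasts. By library, its median ran from -1.24 in Control replicates 1-2 through -1.06 in SRSF9-OE replicate 3 and -1.05 in SRSF2-OE replicate 2 to 0.86 in TRA2B-OE replicate 3.

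DNA replication genes, which peak earlier in the cycle, had medians of 0.73, 0.98, 0.95, 0.40 and 1.01 over 35 tested members, with 35, 35, 33, 34 and 35 higher. DESeq2 called 1, 5, 8, 0 and 4 of them, all higher, beside the same shares of all genes (2.37%, 2.7%, 5.81%, 0.0703% and 2.12%), among them MCM7, a subunit of the replicative helicase, at 1.01 ± 0.16 in SRSF6-OE. The same libraries were lowest for these genes, at -1.10 in Control replicates 1-2, -0.78 in SRSF9-OE replicate 3 and -0.71 in SRSF2-OE replicate 2. SRSF6-OE replicate 3 was at -0.23 for replication genes and at 0.27 for the 43 genes. In the other direction, SRSF2-OE replicate 3 was at 0.46 for replication genes and 0.14 for the 43 genes.

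The subunits of the anaphase-promoting complex itself, most of which do not vary over the cycle, had medians of -0.06, 0.15, 0.08, -0.02 and 0.05 over 15 genes. Genes of the DREAM and MuvB complexes had medians of -0.09, 0.01, 0.03, 0.01 and 0.05 over 12. Single members went either way, in SRSF4-OE from -0.67 to 0.90. Across the 14 libraries the medians of these lists stayed within -0.12 and 0.12, while the median of the 43 genes spanned -1.51 to 1.08. RBL2, a pocket protein of DREAM, stood below Control in each contrast, at -0.31, -0.29, -0.27, -0.11 and -0.49 in the order above, each ± 0.14. Its adjusted p in SRSF4-OE and TRA2B-OE was 0.367 and 0.267 in edgeR and 0.339 and 0.0497 in DESeq2. E2F4 stood above Control in each, at 0.79, 0.55, 0.55, 0.45 and 0.68, each ± 0.23, and was called by neither edgeR nor DESeq2. TFDP1, the partner of E2F proteins, stood at 0.67 ± 0.15 in SRSF6-OE, where the adjusted p was 0.136 in edgeR and 0.0024 in DESeq2.

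**Figure D5:**
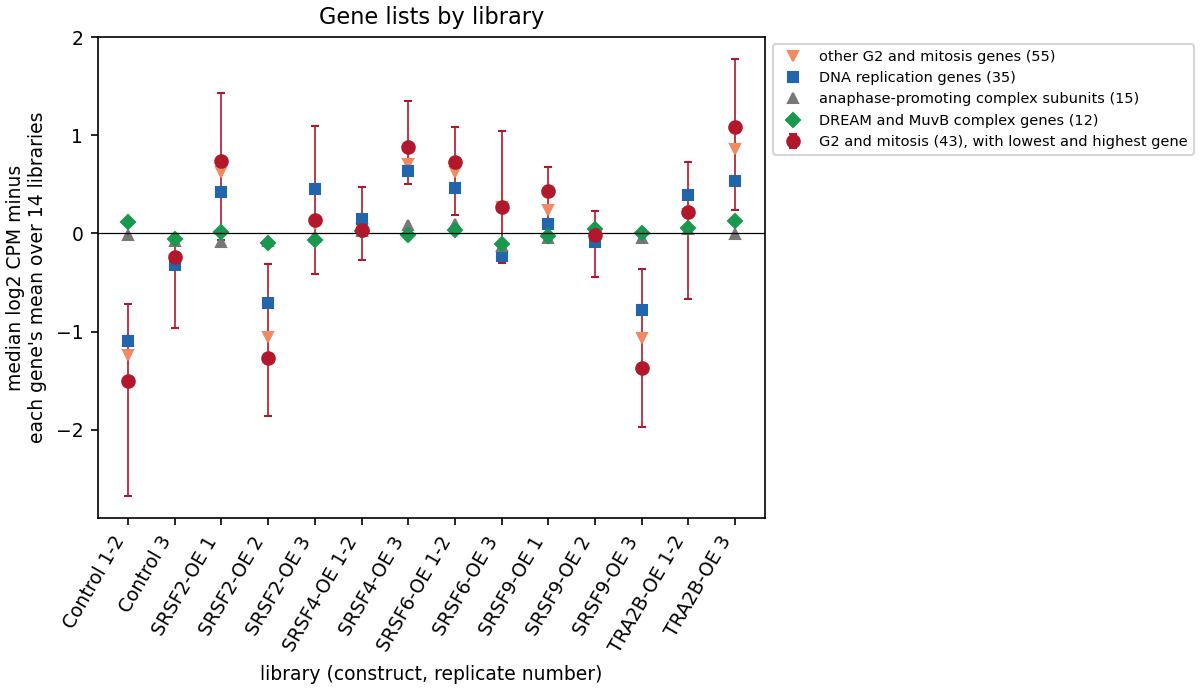
Median of each gene list in each library, as log2 CPM minus each gene's mean over the 14 libraries. Bars on the 43 G2 and mitosis genes reach from the lowest to the highest gene. The other G2 and mitosis genes and the replication genes dip in the same 3 libraries (Control replicates 1-2, SRSF2-OE replicate 2 and SRSF9-OE replicate 3), and the complex subunits stay near 0.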

How the data were processed

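Stranded mRNA libraries were sequenced as paired reads, per the labels' protocols, and the deposited table holds raw counts per gene that the authors made for 18 samples. The submitters' processing notes name STAR 2.5.1b, Trimmomatic 0.36, featureCounts and Subread, and GRCh37 as build. The use of strand in counting is not given in the sources, so reads of overlapping or antisense genes may be shared. Of 60252 IDs, 55528 were named through a table of gene names.

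Samples with the same library ID and barcode were summed, which left 14 libraries. The ID alone is shared by Control and SRSF4-OE, and by SRSF6-OE and TRA2B-OE. They were normalised by TMM, filtered with filterByExpr (minimum count 10; 21326 genes left) and fitted in edgeR 4.0.16 by the quasi-likelihood method with group and label set as terms (7 residual degrees of freedom, common biological coefficient of variation 0.318), with R 4.3.3. P-values were adjusted by Benjamini-Hochberg over all genes tested, with a threshold of 0.05. DESeq2 1.42.0, limma-voom (limma 3.58.1), other filters, scalings, groupings of libraries and leaving out each library were alternatives. Relative levels used log2 CPM with a prior count of 2. Fold changes are adjusted for label set and can differ from ratios of mean CPM.

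The listed genes, the other lists, the tests and the alternatives were chosen with earlier results of these data known. Values in every library are given for the 2 genes per role with the highest mean CPM and for the 3 largest and 3 smallest fold changes of each contrast. Other genes are summarised or named with their range, chosen after their values were seen. Up to 4 genes of other lists were named by mean CPM. One listed marker gene is not reported here. Motifs were searched by exact match in RefSeq promoters on GRCh38.p14, matched by symbol; no coordinate was carried between builds.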

Additional observations from a re-analysis of the deposited data

How the results depend on the processing

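No listed gene was called in any contrast by limma-voom, or by edgeR with RLE size factors, without the count filter, without the label set term, with the numeric-labelled libraries alone, with the 2 libraries of highest mitochondrial share left out, or on leaving out any 1 of the 14 libraries (0 to 0 genes in each contrast and in the F test). The shares of all genes called in these fits are not given, so their counts of 0 are not read as a result about the listed genes. DESeq2 called 1 listed gene in SRSF2-OE, 3 in SRSF4-OE, 6 in SRSF6-OE, 0 in SRSF9-OE, 1 in TRA2B-OE and 3 over all groups. With the 18 samples entered as separate replicates, which takes samples of the same library ID and barcode as replicates, edgeR called 1, 18, 33, 0 and 21 and 8 in the F test. With only the 4 libraries of SRSF4-OE and Control fitted, edgeR called 42 of 43, while the same kind of fit called 0 in the other contrasts. The label set term was kept on these 4 libraries, so the spread was estimated from very few residual degrees of freedom. The cause of the 42 calls was not tested. Of 457 comparisons of single named genes with an alternative, 29 came to pass the threshold and 428 kept direction and side.

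The medians of the 43 genes kept their direction in 122 of 123 alternatives. Over the fits that left out 1 library they ran from 0.02 to 1.13 in SRSF2-OE, 0.94 to 1.84 in SRSF4-OE, 0.69 to 2.09 in SRSF6-OE, -0.034 to 0.92 in SRSF9-OE and 1.14 to 1.96 in TRA2B-OE, and the value below 0 came without SRSF9-OE replicate 1. With numeric-labelled libraries alone, where SRSF6-OE has 1 library, its median was 0.56. Whether replicate numbers pair these libraries was not settled. Correlations of the deviations of same-numbered libraries from their group means ran from -0.42 to 0.49. In groups of 2 libraries the deviations mirror each other, so that some of these values repeat, and differently numbered libraries were not compared. With a replicate block in place of the label set, 0 of the 43 genes were called (share of all genes not given). The medians were then 0.95, 1.22, 1.27, 0.88 and 1.45. A gene that was not called is not shown to be unchanged.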

Other observations

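The genes that set the pace of G1 followed the library pattern of the mitotic genes in part. The median level of 8 G1 cyclin and kinase genes, as log2 CPM minus each gene's mean, was lowest in Control replicates 1-2 (-0.55) and Control replicate 3 (-0.34), followed by SRSF9-OE replicate 3 (-0.21). In SRSF2-OE replicate 2, where mitotic genes were low as well, it was 0.16. TRA2B-OE replicate 3, the highest library for the mitotic genes, was at -0.16, and SRSF6-OE replicate 3 was highest for the G1 genes (0.32). Against Control, the lowest log2 fold change in this list was -1.50 in SRSF2-OE and -1.96 in SRSF4-OE. CCND1, cyclin D1, lay above Control in all 5 contrasts (log2 fold change 1.08 ± 0.50 in SRSF2-OE, 1.76 ± 0.53 in SRSF4-OE, 1.09 ± 0.52 in SRSF6-OE, 0.79 ± 0.49 in SRSF9-OE and 1.07 ± 0.54 in TRA2B-OE). DESeq2 called it in SRSF4-OE (adjusted p = 0.034), and edgeR did not (adjusted p = 0.244). CDK6 stood at 1.67 ± 0.38 in SRSF6-OE, with an adjusted p of 0.137 in edgeR and 0.0026 in DESeq2. CDK inhibitors and pocket proteins had medians of -0.02, -0.17, -0.01, -0.47 and 0.23 over 6 tested genes in SRSF2-OE, SRSF4-OE, SRSF6-OE, SRSF9-OE and TRA2B-OE. CDKN1B, which encodes p27, stood below Control in all 5 (from -0.74 ± 0.27 in SRSF4-OE to -0.22 ± 0.27 in TRA2B-OE), CDKN1A, which encodes p21, differed by -0.22 to 0.12, and neither gene passed in edgeR or DESeq2. Of the 6 genes, DESeq2 called 1 higher in SRSF6-OE, CDKN2D (2.98 and 7.28 CPM against 2.48 and 1.49 CPM in Control), and 3 in its test over all groups, CDKN1C, CDKN2D and RB1.

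Within 4 of the 5 overexpression groups, libraries with more transcript of the introduced factor had a lower median of the 43 G2 and mitosis genes. In SRSF2-OE, SRSF2 stood at 214, 310 and 396 CPM in replicates 1, 3 and 2, and the mitotic median at 0.73, 0.14 and -1.27. In SRSF9-OE, SRSF9 stood at 359, 629 and 839 CPM in replicates 1, 2 and 3, and the mitotic median at 0.43, -0.01 and -1.37. The summed SRSF4-OE library had more SRSF4 than replicate 3 (187 against 168 CPM) and a lower mitotic median (0.03 against 0.88), and the summed TRA2B-OE library more TRA2B (201 against 147 CPM) and a lower median (0.22 against 1.08). SRSF6-OE went the other way, with 417 CPM of SRSF6 and a median of 0.73 in the summed library against 283 CPM and 0.27 in replicate 3. In SRSF4-OE, TRA2B-OE and SRSF6-OE the 2 libraries also differ in label set, and label set and level of the factor cannot be told apart there. SRSF2-OE replicate 1 and TRA2B-OE replicate 3, each lowest in its group for the factor, had the highest mitochondrial shares (16.4% and 14.3%). In SRSF2-OE, SRSF4-OE, SRSF6-OE and TRA2B-OE the mitochondrial share ordered the libraries as the mitotic median did. In SRSF9-OE it did not, with 6.94% in replicate 2 and 8.94% in replicate 3. In Control it ran the other way (11.96% in replicates 1-2 and 7.64% in replicate 3). Both orders were noticed after the values were seen, and with 2 or 3 libraries per group neither was tested. Counts of a factor do not part the introduced sequence from the gene of the cell.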
